A study of Mus musculus with 8 samples.

Results

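Of the genes that carry signals from Toll-like receptors, the IL-1 receptor and the NOD sensors into the macrophage, Irak2 and Ripk2 were lower in macrophages of Mkl1-/- mice than of Mkl1+/+ mice in each of the 2 experiments of the study and when both were joined. Map3k8 was lower by less when both were joined, and that call held in only 8 of 16 alternative fits and was lost in 7 of the 8 fits that left out 1 library. The group examined here holds the MyD88, IRAK and RIPK2 adaptors and kinases, chosen by symbol: Myd88, Irak1, Irak2, Irak4, Traf6, Ticam1, Ticam2, Tirap, Ripk2 and Map3k8. All 10 members were found among the 53735 genes of the count tables, and all 10 passed the filter on low counts that left 14418 genes for testing.

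RNA-seq was performed on bone marrow derived macrophages (BMDMs), which were differentiated from marrow in culture for 7 days. The marrow came from male mice of C57BL/6J background, 6 months old, that had received angiotensin II (Ang II) from osmotic pumps for 7 days at 1.44 mg/kg/day. WT stands for Mkl1+/+, Apoe-/- and KO for Mkl1-/-, Apoe-/- mice, so that all groups lacked Apoe and all had Ang II, and the deletion of Mkl1 was global and not limited to macrophages. Libraries WT 1, WT 2, KO 5 and KO 6 formed experiment 1 and libraries WT 3, WT 4, KO 7 and KO 8 formed experiment 2, which the submitters call batches and compared separately. The labels do not say that each library came from a separate mouse, so p-values measure the spread between these libraries.

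Toll-like receptors and the IL-1 receptor share an intracellular TIR domain that recruits the adaptor MyD88, on which the kinases IRAK4, IRAK1 and IRAK2 assemble through death domains. The IRAKs then engage the ubiquitin ligase TRAF6, from which the NF-κB and MAP kinase pathways branch. TIRAP bridges MyD88 to receptors at the cell surface, and TICAM2 (TRAM) bridges TICAM1 (TRIF) to TLR4 for the branch that induces type I interferon. RIPK2 relays NOD1 and NOD2, the sensors of bacterial cell wall fragments, and MAP3K8 (TPL2) links the same receptors to the ERK kinases.

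Between 33977799 and 41584540 counts were deposited per library. Levels are CPM, that is counts scaled by library size after TMM normalization over the 8 libraries, and a mean ± SD is over 2 libraries. Mkl1, the targeted gene, had 25.6, 27.1, 26.8 and 29.6 CPM in WT 1 to WT 4 and 19.5, 20.9, 14.6 and 10.4 CPM in KO 5 to KO 8, so its transcript was not absent in KO. It fell by 0.39 on the log2 scale in experiment 1 and by 1.17 in experiment 2 (adjusted p = 0.00381 and 0.0218). The former call was lost in a model of the 4 groups over all libraries (adjusted p = 0.0812). In that model the value was -0.43 to -0.34 with a library of experiment 1 left out. Joined, Mkl1 had a log2 value of -0.78 that did not pass the threshold (adjusted p = 0.0574) but did with DESeq2, with no filter on low counts and as the mean effect in the model with the interaction (adjusted p = 0.00296, 0.0380 and 0.00232). Its response differed between the experiments by -0.79 (adjusted p = 0.0238), a call lost without WT 1, WT 2, WT 4, KO 5 or KO 6 (adjusted p between 0.0587 and 0.0879). All 10 macrophage markers passed the filter, with a sum of 27140 to 36520 CPM in WT and 20370 to 22270 CPM in KO of experiment 1 and of 16030 to 21420 CPM in WT and 18550 to 26330 CPM in KO of experiment 2. Of these markers, 3 were lower and 6 higher in KO of experiment 1, where 28.1% and 27.0% of all genes were, and 2 lower and 3 higher in experiment 2, where 8.29% and 7.52% were. Joined, 0 were lower and 2 higher, where 3.41% and 3.72% of all genes were. For 6 the KO response differed between the experiments. Of these, 4 had a more negative and 2 a more positive value in experiment 2, where 20.6% and 21.0% of all genes had. Adgre1, which encodes the macrophage surface protein F4/80, had 8328 and 7102 CPM in WT and 1929 and 1669 CPM in KO of experiment 1 but 2678 and 2720 CPM in WT and 4874 and 5264 CPM in KO of experiment 2. Csf1r, the receptor for the growth factor M-CSF, went the other way, with 1561 and 1232 CPM in WT and 2538 and 2440 CPM in KO of experiment 1 and 2448 and 2225 CPM in WT and 1176 and 751 CPM in KO of experiment 2. Both were picked after their values were seen, to show the 2 directions in the list, and the part of these markers in the results was not tested. The 9 fibroblast markers set the KO libraries of experiment 1 apart, with a sum of 179 to 236 CPM against 2.52 to 12.9 CPM in the other 6 libraries, and their part in the results was not tested. The 8 dendritic cell markers, mostly through Itgax, summed to 20.1 to 47.7 CPM in KO of experiment 1 and WT of experiment 2 and to 1.82 to 4.11 CPM elsewhere, and their part was not tested either. Neutrophil markers summed to at most 13.7 CPM and lymphocyte markers to at most 0.162 CPM in any library, with Cd3e at 0 in every library. In a bulk sample fewer cells of a type and less RNA per cell cannot be told apart.

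Promoters are shown for Irak2, which decreased most, and for Myd88 and Traf6, whose response differed between the experiments. They hold 250 bases before the start that RefSeq annotates, 5′ to 3′ on the strand of the gene, from RefSeq on GRCm38.p6, at chr6:113638217-113638466 (plus), chr9:119340019-119340268 (minus) and chr2:101678170-101678419 (plus). The RefSeq start of Irak2 is that of the GENCODE gene used for positions here and that of Traf6 lies 9 bases before it, but that of Myd88 lies 1393 bases inside the GENCODE gene, so that its window holds no sequence before the outermost GENCODE start. Capitals mark matches on either strand to GGGCGG (the GC box), GGGNNNNNCC or TATAAA.
Irak2: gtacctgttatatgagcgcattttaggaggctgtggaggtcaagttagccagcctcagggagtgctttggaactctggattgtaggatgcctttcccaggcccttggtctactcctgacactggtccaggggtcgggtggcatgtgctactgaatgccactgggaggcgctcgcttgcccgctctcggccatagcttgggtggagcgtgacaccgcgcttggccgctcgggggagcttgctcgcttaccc
Myd88: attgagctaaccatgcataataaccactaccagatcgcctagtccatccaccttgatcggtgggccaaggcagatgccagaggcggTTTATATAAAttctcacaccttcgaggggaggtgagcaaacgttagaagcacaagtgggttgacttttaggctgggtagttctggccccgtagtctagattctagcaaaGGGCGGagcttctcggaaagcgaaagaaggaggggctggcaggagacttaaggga
Traf6: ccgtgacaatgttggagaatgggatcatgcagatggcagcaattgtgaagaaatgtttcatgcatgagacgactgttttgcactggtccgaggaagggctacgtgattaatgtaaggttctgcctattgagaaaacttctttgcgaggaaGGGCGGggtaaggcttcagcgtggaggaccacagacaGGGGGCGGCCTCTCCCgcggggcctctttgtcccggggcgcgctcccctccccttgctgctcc
RefSeq promoters, with 250 bases before and 50 after the start, matched 7 members, all but Ticam2, Ripk2 and Map3k8. Both promoters of Tirap also start inside its GENCODE gene, by 326 and 386 bases. The κB consensus, the AP-1 site TGANTCA and the CArG box bound by SRF had no match in any of the 7, where 5.8%, 7.81% and 1.63% of 32851 promoters of this length held them. GGGCGG was found in 7 and GGGNNNNNCC in 6 of 7, against 35.7% and 50.8% of all promoters, and matches to both overlap in Irak2, Irak4, Traf6 and Ticam1. In Irak2 both lie after the start, so that none is marked above. TATAAA was found in Myd88 alone, against 13.6% of all promoters. A missing match says only that these letters are not in this window.

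KO was compared with WT within each experiment and with both joined, by the quasi-likelihood test of edgeR, adjusted over all genes tested after Benjamini and Hochberg, and a gene was called at an adjusted p under 0.05. In experiment 1, 5 of the 10 members were lower and 3 higher, against 28.1% and 27.0% of all genes. In experiment 2, 4 were lower and 0 higher (1 higher with DESeq2, and 0 higher at an unadjusted p under 0.05), against 8.29% and 7.52% of all genes. With the experiment as an additive term, 3 were lower and 0 higher in the joined comparison (0 higher at an unadjusted p under 0.05), against 3.41% and 3.72% of all genes. Upper-quartile scaling moved the calls over all genes from 4056 lower and 3892 higher to 3207 and 4776 in experiment 1, and from 491 and 536 to 367 and 754 joined. The members had medians of -0.16, -0.42 and -0.15 on the log2 scale in these 3 comparisons, where all genes had 0.01, 0.01 and 0.00. Between the experiments the KO response differed for 5 members, 4 with a more negative value in experiment 2 and 1 with a more positive value, against 20.6% and 21.0% of all genes. In experiment 1 the calls of Irak1, Ticam1, Ticam2 and Tirap were lost when any library of that experiment was left out, with adjusted p between 0.0616 and 0.377.

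**Figure D1:**
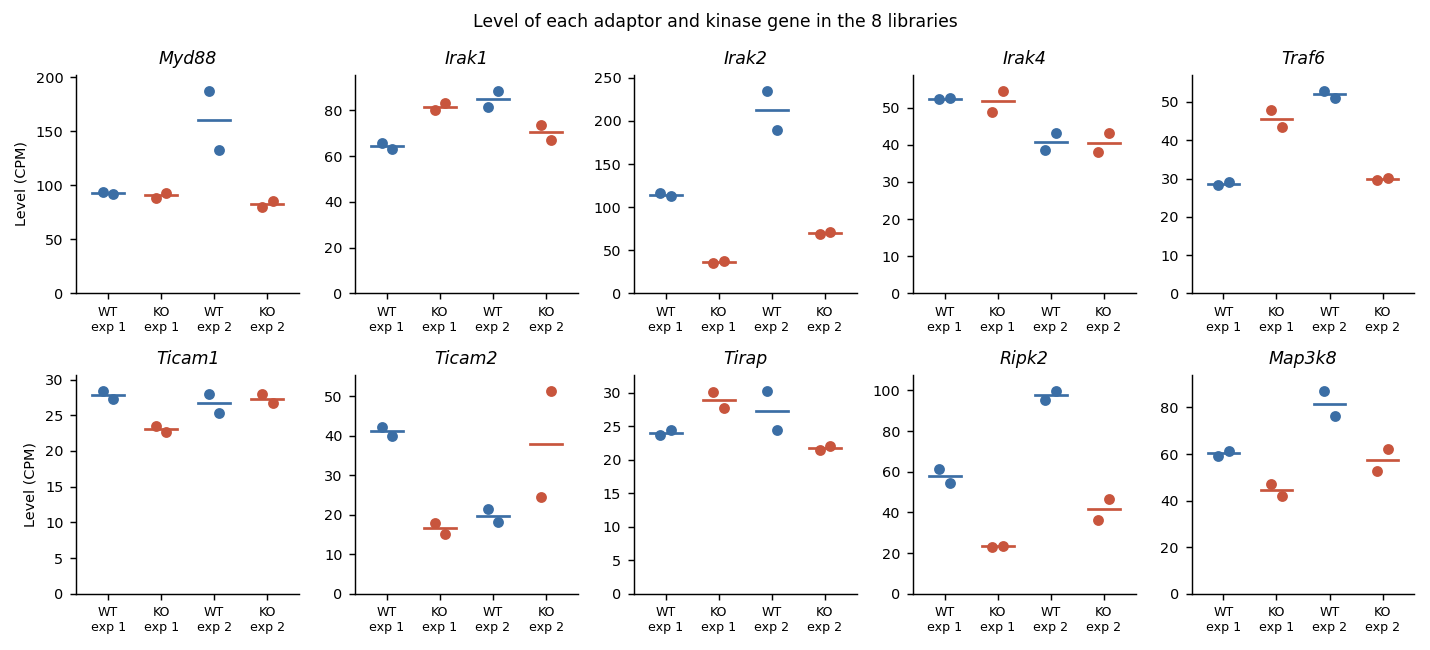
Level of each of the 10 genes (CPM, linear axis from 0) in WT (blue) and KO (red) libraries of experiments 1 and 2, with a point per library and a line at the mean of 2 libraries. In Irak2 and Ripk2 all KO points lie below all WT points, whereas Traf6 and Ticam2 cross over between the experiments.

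Irak2, the IRAK family member that sustains signalling through TRAF6, showed the largest decrease of the 10 in both experiments. It lies on chromosome 6 (113638467 to 113695026, plus strand, GENCODE M21 on GRCm38, the build named in the submitters' notes). WT 1 and WT 2 had 116 and 113 CPM, and KO 5 and KO 6 had 35.7 and 37.2 CPM. WT 3 and WT 4 had 235 and 189 CPM, and KO 7 and KO 8 had 68.4 and 71.6 CPM. The KO libraries all lay below the WT libraries, also across the experiments. The KO mean was 31.9% of the WT mean in experiment 1 and 32.99% in experiment 2, with log2 fold changes of -1.66 (standard error 0.06, adjusted p = 1.13e-06) and -1.60 (standard error 0.15, adjusted p = 0.00727). Joined, the value was -1.62 (standard error 0.09, adjusted p = 0.000504). The difference between the experiments was 0.05 on the log2 scale (standard error 0.15, adjusted p = 0.814).

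Ripk2, the kinase that NOD1 and NOD2 bind through a CARD domain, lies on chromosome 4 (16122733 to 16163647, minus strand). Its levels were 61.5 and 54.3 CPM in WT 1 and WT 2 and 22.9 and 23.7 CPM in KO 5 and KO 6. In experiment 2 they were 95.5 and 99.7 CPM in WT and 36.2 and 46.8 CPM in KO. Again no KO library reached the lowest WT library. It fell by 1.32 on the log2 scale (standard error 0.08, adjusted p = 7.79e-06) in experiment 1, by 1.23 (standard error 0.15, adjusted p = 0.0132) in experiment 2 and by 1.27 (standard error 0.10, adjusted p = 0.00174) joined, to 40.3% and 42.5% of the WT mean in the 2 experiments. The difference between the experiments was 0.08 (standard error 0.18, adjusted p = 0.751). Irak2 and Ripk2 were the 2 members with all KO libraries below all WT libraries, and 0 members had them above, where 6.25% and 6.46% of all genes did.

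Map3k8, the MAP kinase kinase kinase that p105 (the Nfkb1 product) holds in check, was lower by less. It lies on chromosome 18 (4331327 to 4353015, minus strand). WT 1 and WT 2 had 59.2 and 61.4 CPM against 47.1 and 41.9 CPM in KO 5 and KO 6, and WT 3 and WT 4 had 87.1 and 76.3 CPM against 52.7 and 61.99 CPM in KO 7 and KO 8. Within each experiment the genotypes did not overlap, but KO 8 lay above both WT libraries of experiment 1. The log2 values were -0.45 (standard error 0.07, adjusted p = 0.00118) in experiment 1, -0.51 (standard error 0.13, adjusted p = 0.0608) in experiment 2 and -0.47 (standard error 0.09, adjusted p = 0.0251) joined. In experiment 2 it was called with DESeq2, with no filter on low counts and in the model of 4 groups (adjusted p = 0.0251, 0.0230 and 0.0118). That same model kept the call without WT 4, KO 7 or KO 8 and lost it without WT 3. Its values were -0.63 to -0.37 over these fits. The call in experiment 1 was lost in the model of 4 groups without WT 1, WT 2 or KO 6. Its values were -0.53 to -0.36 over the fits that left out a library of that experiment. The joined call was lost without any library but KO 8, with values of -0.52 to -0.42 over the fits that left out a library. Without the experiment term the joined calls of Irak2, Ripk2 and Map3k8 were all lost (adjusted p = 0.145, 0.150 and 0.180), at -1.62, -1.26 and -0.48 on the log2 scale.

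These 3 genes also differed between the experiments, in the same direction in both genotypes. In experiment 2 against experiment 1, tested in a model of 4 groups, Irak2 was higher by 0.89 in WT and 0.94 in KO on the log2 scale (adjusted p = 0.00139 and 0.00167). Ripk2 was higher by 0.75 and 0.83 (adjusted p = 0.00480 and 0.00398), and Map3k8 by 0.44 and 0.37 (adjusted p = 0.0230 and 0.0413). The call of Ripk2 in WT was lost without WT 2 (adjusted p = 0.0515). Those of Map3k8 were lost without WT 1, WT 2 or WT 3 in WT (adjusted p between 0.103 and 0.148) and without KO 5, KO 6 or KO 8 in KO (adjusted p between 0.0916 and 0.210), and in KO also under upper-quartile scaling (adjusted p = 0.0767).

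**Figure D2:**
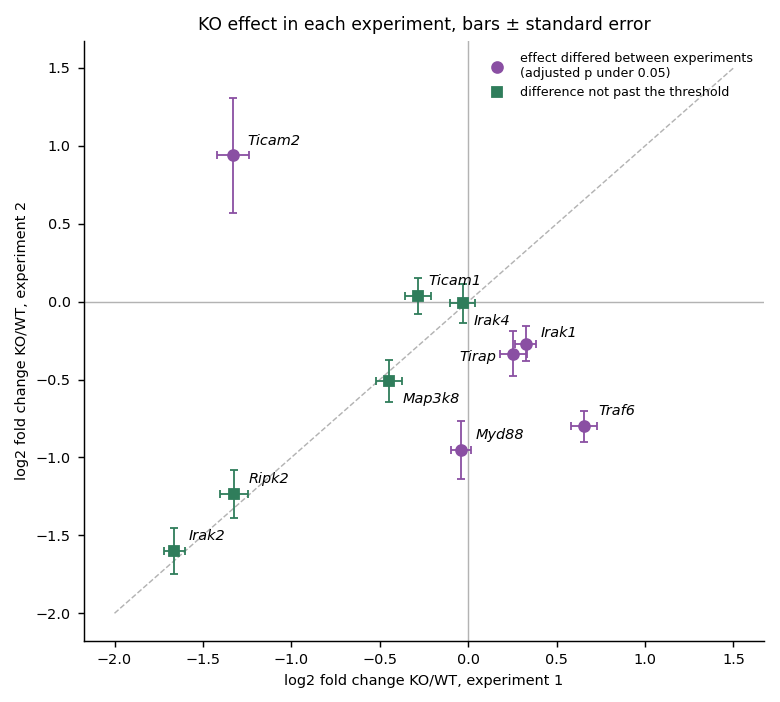
Log2 fold change of KO over WT in experiment 1 (horizontal) and experiment 2 (vertical) for the 10 genes, with bars of ± 1 standard error and a dashed line of equal change. Irak2, Ripk2 and Map3k8 lie near the line and below 0 in both, and purple circles mark the 5 genes whose response differed between the experiments at an adjusted p under 0.05.

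Irak4 and Irak1, the other IRAK genes among the members, did not fall in both experiments as Irak2 did. Irak4, the kinase that MyD88 recruits first, lies on chromosome 15 (94543643 to 94581815, plus strand), 13.3 Mb from Mkl1. It had 52.2, 52.6, 38.5 and 43.1 CPM in WT 1 to WT 4 and 48.9, 54.6, 37.99 and 43.1 CPM in KO 5 to KO 8. The genotypes overlapped in both experiments. Its log2 values were -0.03 (standard error 0.07, adjusted p = 0.731) in experiment 1 and -0.01 (standard error 0.12, adjusted p = 0.967) in experiment 2, and their sign turned under upper-quartile scaling. Irak4 was lower in experiment 2 than in experiment 1, by 0.36 in WT and 0.35 in KO (a decrease on the log2 scale, adjusted p = 0.0308 and 0.0325). These calls were lost without WT 1, WT 2 or WT 3 (adjusted p between 0.112 and 0.137) and without KO 5, KO 6 or KO 7 (between 0.0826 and 0.181).

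Irak1, a kinase that IRAK4 phosphorylates, lies on chromosome X (74013914 to 74023918, minus strand). It had 65.8 and 63.2 CPM in WT 1 and WT 2 and 80.2 and 82.97 CPM in KO 5 and KO 6, a rise of 0.33 on the log2 scale (standard error 0.06, adjusted p = 0.00200). In experiment 2 it had 81.3 and 88.5 CPM in WT and 73.6 and 67.1 CPM in KO. KO lay below WT, but the value did not pass (-0.27, standard error 0.11, adjusted p = 0.161). Irak1 passed the threshold there only in the model of 4 groups (adjusted p = 0.0395). In that model the value was -0.31 to -0.21 with a library of experiment 2 left out, and only the fit without KO 7 kept the call. The responses differed between the experiments by -0.61 (standard error 0.12, adjusted p = 0.00576).

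Levels of different genes were compared as CPM per kilobase of exon, with all annotated exons of a gene merged, so that a gene with a long, little used transcript is understated. On this scale Irak2 was 51.9 and 51.7% of the summed Irak1, Irak2 and Irak4 transcripts in WT 1 and WT 2 and 68.1 and 61.1% in WT 3 and WT 4. In KO 5 and KO 6 its share was 23.2 and 22.9%, and in KO 7 and KO 8 it was 40.1 and 41.6%. Irak1 held the largest share in KO of experiment 1, with 48.8 and 47.7%. The ratio of Irak2 to Irak1 was between 1.89 and 3.09 in WT libraries and between 0.476 and 1.14 in KO libraries, without overlap. The summed level was 49.5 to 78.2 CPM per kilobase in WT and 34.8 to 39.04 CPM per kilobase in KO. These shares describe the decrease of Irak2 on another scale and are no further test of it.

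**Figure D3:**
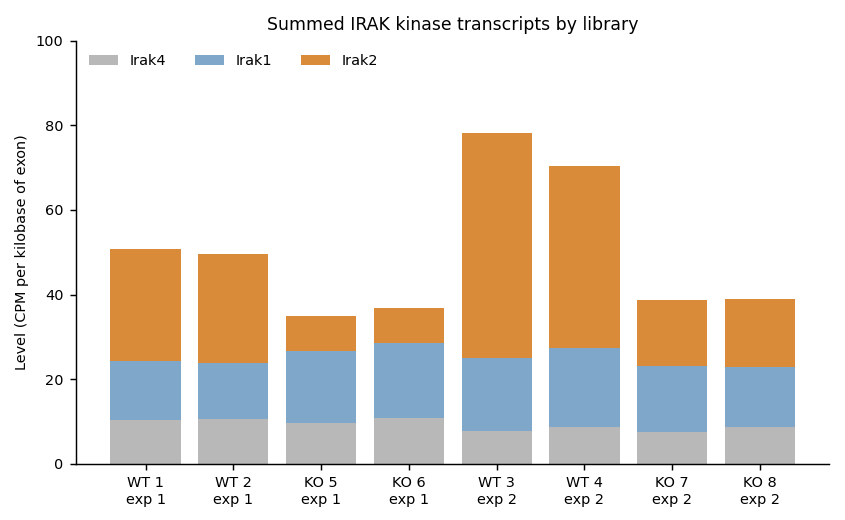
Level of Irak4 (grey), Irak1 (blue) and Irak2 (orange) in CPM per kilobase of exon, stacked per library on a linear axis from 0. The Irak2 segment takes at least 51.7% of the bar in WT and at most 41.6% in KO.

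Myd88, the adaptor at the head of the pathway, was the most abundant member per kilobase in all 4 groups, with 35.9 ± 0.516 and 35.2 ± 1.33 CPM per kilobase in WT and KO of experiment 1 and 62.1 ± 15.04 and 32.1 ± 1.32 CPM per kilobase in WT and KO of experiment 2. It lies on chromosome 9 (119335934 to 119341411, minus strand). In experiment 1 it had 93.4 and 91.5 CPM in WT and 88.2 and 93.1 CPM in KO, which overlapped (-0.04, standard error 0.06, adjusted p = 0.586). In experiment 2 it had 187 and 132 CPM in WT and 80.2 and 84.99 CPM in KO, a fall to 51.7% of WT (log2 value -0.95, standard error 0.19, adjusted p = 0.0310). Joined, the value was -0.49 (standard error 0.21) and did not pass (adjusted p = 0.203), though it did as the mean effect in the model with the interaction (-0.49, adjusted p = 0.0115). The responses differed by -0.93 (standard error 0.21, adjusted p = 0.0112). KO libraries lay between 80.2 and 93.1 CPM, and WT of experiment 2 stood above WT of experiment 1 by 0.79 on the log2 scale (adjusted p = 0.00739), a call lost without WT 1 or WT 2 (adjusted p = 0.0544 and 0.0632).

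Traf6, the ubiquitin ligase downstream of the IRAKs, changed in opposite directions in the experiments. It lies on chromosome 2 (101678429 to 101701669, plus strand) and was among the 3 lowest members per kilobase in every group. In experiment 1 it rose from 28.2 and 29.2 CPM in WT to 47.8 and 43.4 CPM in KO (0.66, standard error 0.07, adjusted p = 0.000153). In experiment 2 it fell from 52.9 and 51.1 CPM in WT to 29.7 and 30.03 CPM in KO (-0.80, standard error 0.10, adjusted p = 0.0136). The genotypes did not overlap in either experiment. The responses differed by -1.47 (standard error 0.11, adjusted p = 0.000237), and the joined value was -0.07 (standard error 0.29, adjusted p = 0.920). The higher groups were WT of experiment 2 and KO of experiment 1.

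Tirap, the bridging adaptor of MyD88, lies on chromosome 9 (35184551 to 35200291, minus strand). It had 23.7 and 24.4 CPM in WT and 30.1 and 27.8 CPM in KO of experiment 1, a rise (0.25, standard error 0.08, adjusted p = 0.0219) that neither DESeq2 nor the model of 4 groups called (adjusted p = 0.0765 and 0.0992). In experiment 2 it had 30.2 and 24.4 CPM in WT and 21.4 and 21.97 CPM in KO, with no overlap but a value (-0.33, standard error 0.14, adjusted p = 0.174) that did not pass. In the model of 4 groups it was -0.48 without WT 4, where it passed, and -0.15 without WT 3. The responses differed by -0.60 (standard error 0.16, adjusted p = 0.0219), which was lost without WT 1, WT 2, WT 3, KO 5 or KO 7 (adjusted p between 0.0515 and 0.0963).

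Ticam2, which brings TRIF to TLR4 at endosomes, had its response turned the other way. It lies on chromosome 18 (46557291 to 46574533, minus strand). It fell from 42.3 and 39.96 CPM in WT to 17.9 and 15.2 CPM in KO of experiment 1 (-1.33, standard error 0.09, adjusted p = 1.43e-05). In experiment 2 it had 21.5 and 18.03 CPM in WT, 24.5 CPM in KO 7 and 51.3 CPM in KO 8. Both KO libraries lay above their WT, KO 8 far above, and the log2 value was 0.94 (standard error 0.37, adjusted p = 0.151). In the model of 4 groups it was 0.94 with all libraries, 0.31 without KO 8 and 1.40 without KO 7. The responses differed by 2.25 (standard error 0.43, adjusted p = 0.00556), and by 1.63 to 2.73 with a library left out.

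Ticam2 overlaps Tmed7, a gene of vesicle transport, on the same strand, and how reads over both were counted is not given in the sources used here. Tmed7 fell in experiment 1 by 0.49 on the log2 scale (adjusted p = 0.000216) and had a log2 value of 0.24 in experiment 2 (adjusted p = 0.292). Counts of Ticam2 were 15.3 and 14.96% of those of Tmed7 in WT 1 and WT 2 and 16.9% in KO 8, and between 7.74% and 9.62% in the other 5 libraries. Protein-coding genes on the opposite strand overlap Myd88 (Acaa1a), Irak4 (Twf1) and Tirap (Srpr). Noncoding or unclassified genes overlap Irak2 (Gm43964 and Gm43963 on the opposite strand, Gm43912 on the same) and Tirap (Gm39318, opposite strand). No counts stand under these 4 names. On the same strand Gm22690 overlaps Ripk2, with at most 3 counts in a library, and genes with 0 counts overlap Myd88 (Slc22a14) and Irak1 (Mir5132 and Mir718).

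Ticam1, the TRIF adaptor itself, lies on chromosome 17 (56269319 to 56276786, minus strand). It had 28.4, 27.3, 27.9 and 25.4 CPM in WT 1 to WT 4 and 23.4, 22.6, 27.98 and 26.7 CPM in KO 5 to KO 8, so that the genotypes were apart in experiment 1 and overlapped in experiment 2. In experiment 1 it fell by 0.28 on the log2 scale (standard error 0.07, adjusted p = 0.0115), a call that upper-quartile scaling did not give (adjusted p = 0.0642). In experiment 2 the value was 0.04 (standard error 0.12, adjusted p = 0.853). The responses differed by 0.31 (standard error 0.12, adjusted p = 0.0767), which passed the threshold without WT 3 (adjusted p = 0.0454).

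Between the experiments, 6 members were higher and 2 lower in WT of experiment 2 than of experiment 1, against 15.7% and 15.4% of all genes, and in KO 4 were higher and 3 lower, against 17.5% and 15.3%. Upper-quartile scaling moved the split over all genes in KO from 2200 lower and 2522 higher to 2745 and 1936. Myd88, Irak1, Irak2, Traf6, Ripk2 and Map3k8 were higher in WT, and Irak4 and Ticam2 lower. In KO, Irak2, Ripk2, Map3k8 and Ticam2 were higher and Irak4, Traf6 and Tirap lower. Beside the losses given above, the call of Irak1 in WT was lost without WT 1 or WT 2 (adjusted p = 0.0668 and 0.0897), that of Ticam2 without any WT library in WT (adjusted p between 0.109 and 0.159) and without KO 5 or KO 6 in KO (adjusted p = 0.114 and 0.142), and that of Tirap without any KO library in KO (adjusted p between 0.0794 and 0.169). By level per kilobase, Myd88, Irak2 and Ripk2 led in both WT groups, in this order. In KO of experiment 1 Irak2 (8.27 ± 0.242 CPM per kilobase) and Ripk2 (8.28 ± 0.197) were at rank 6 and 5 and did not differ beyond their spread. In KO of experiment 2 Irak2 (15.9 ± 0.513), Irak1 (14.9 ± 0.976) and Ripk2 (14.7 ± 2.67) followed Myd88 within their spread.

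Around the adaptors, 5 further lists of the pathway were counted, namely receptors, the ubiquitin, TAK1 and IKK module, the MAP kinase module, the TRIF and interferon branch, and brakes. Their counts of genes lower and higher stand beside 28.1% and 27.0% of all genes in experiment 1, 8.29% and 7.52% in experiment 2, and 3.41% and 3.72% joined, and each list is described without a test of it. Of 24 receptors and coreceptors 21 were tested. In experiment 1, 6 were lower and 9 higher, in experiment 2, 7 lower and 1 higher, and joined, 1 lower (Tlr1) and 2 higher (Tlr4 and Il1r1). As shares of those tested, these were 28.6% and 42.9% in experiment 1, 33.3% and 4.76% in experiment 2 and 4.76% and 9.52% joined. Nod2, the sensor upstream of RIPK2, had 15.5, 11.2, 78.6 and 64.7 CPM in WT 1 to WT 4 and 8.68, 9.52, 8.83 and 7.17 CPM in KO 5 to KO 8. All its KO libraries lay below its WT libraries, and it fell by 0.57 in experiment 1 and by 3.16 in experiment 2 on the log2 scale (adjusted p = 0.0229 and 0.00327). Cd36, a coreceptor and scavenger receptor, fell by 1.99 in experiment 1 (adjusted p = 2.51e-06) and had a log2 value of 1.13 in experiment 2 (adjusted p = 0.115).

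In the ubiquitin, TAK1 and IKK module, 8 of 19 genes were lower and 4 higher in experiment 1, 5 lower and 1 higher in experiment 2, and 1 in each direction joined. As shares of those tested, these were 42.1% and 21.1% in experiment 1, 26.3% and 5.26% in experiment 2 and 5.26% and 5.26% joined. The joined calls were Birc3, a ubiquitin ligase of the NF-κB and NOD pathways (-1.49, adjusted p = 0.0109), and Peli2, a ubiquitin ligase that acts on IRAKs (1.83, adjusted p = 0.00360). Birc3 fell by 1.07 and 1.92 on the log2 scale in experiments 1 and 2, and Peli2 rose by 2.15 and 1.49.

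Of the 14 genes of the MAP kinase module, 5 were lower and 2 higher in experiment 1, 2 lower and 0 higher in experiment 2, and 1 lower and 0 higher joined. As shares of those tested, these were 35.7% and 14.3% in experiment 1, 14.3% and 0.00% in experiment 2 and 7.14% and 0.00% joined. The joined call was Map2k1, a substrate of MAP3K8 (-0.36, adjusted p = 0.0315). Nfkb1, whose product holds MAP3K8, fell by 0.30 in experiment 1 and by 1.29 in experiment 2 (adjusted p = 0.0139 and 0.00953), while Tnip2, whose product binds MAP3K8, had 0.13 and -0.06 (adjusted p = 0.143 and 0.748). Mapkapk2, a kinase downstream of p38, fell by 1.83 in experiment 2 (adjusted p = 0.00727), with -0.19 in experiment 1 (adjusted p = 0.0904). Map2k6, a kinase of p38, rose by 2.64 in experiment 1 (adjusted p = 2.35e-05) from 0.885 and 1.14 CPM in WT, and had a log2 value of 0.98 in experiment 2 (adjusted p = 0.172).

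In the TRIF and interferon branch, 4 of 13 genes were lower and 2 higher in experiment 1, 5 lower and 1 higher in experiment 2, and 3 lower and 0 higher joined. As shares of those tested, these were 30.8% and 15.4% in experiment 1, 38.5% and 7.69% in experiment 2 and 23.1% and 0.00% joined. The 3 joined calls were Traf3, Ikbke and Tank, at -0.59, -1.16 and -0.78 on the log2 scale, which were lower in each experiment too. Irf7, an inducer of interferon, rose by 2.33 in experiment 1 (adjusted p = 3.94e-06) and had a log2 value of -1.71 in experiment 2 (adjusted p = 0.104). Slc15a4, a lysosomal transporter, rose by 0.55 in experiment 1 and fell by 0.65 in experiment 2 (adjusted p = 0.000707 and 0.0265).

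Of 17 brakes, 9 were lower and 3 higher in experiment 1, 5 lower and 1 higher in experiment 2, and 3 lower and 0 higher joined. As shares of those tested, these were 52.9% and 17.6% in experiment 1, 29.4% and 5.88% in experiment 2 and 17.6% and 0.00% joined. The joined calls were Tnfaip3, the deubiquitinase A20, Tnip1, its partner, and Zc3h12a, an RNase that degrades cytokine mRNA, at -2.76, -1.29 and -1.26 on the log2 scale (adjusted p = 0.000940, 0.0103 and 0.0210). Irak3, the inhibitory member of the IRAK family, fell in experiment 1 (-2.90, adjusted p = 4.02e-05) and rose in experiment 2 (0.74, adjusted p = 0.0373).

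**Figure D4:**
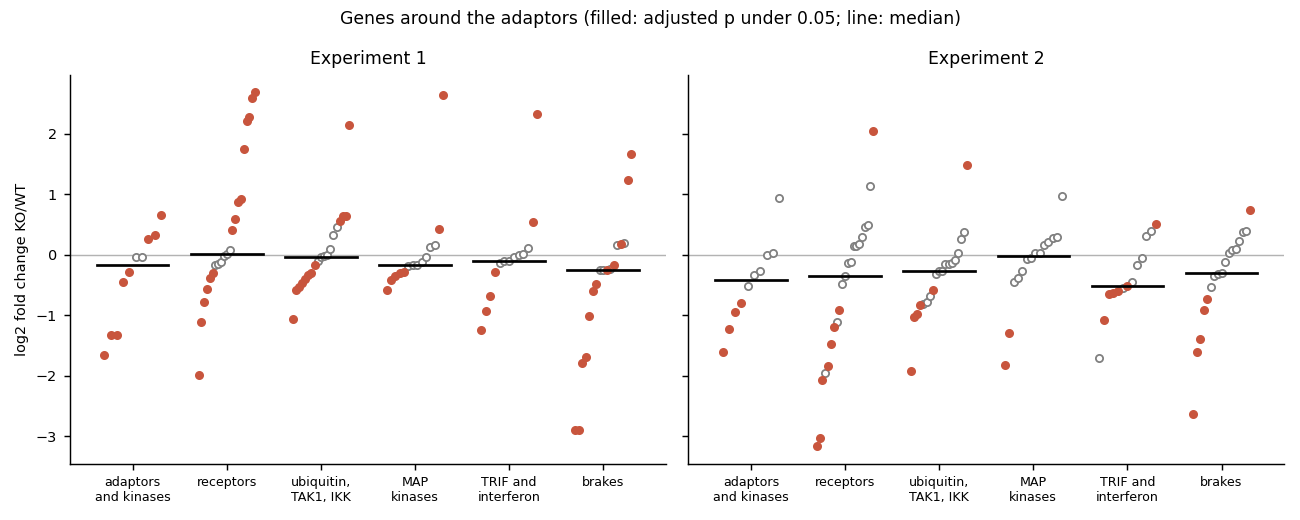
Log2 fold change of KO over WT for the 10 adaptors and kinases and 5 further lists in experiment 1 (left) and experiment 2 (right), with a point per gene, filled at an adjusted p under 0.05, and a line at the median. Medians lie between -0.52 and 0.02, and in each list genes spread to both sides of 0.

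By pattern over the 8 libraries, measured as the root mean square distance of log2 CPM centred on the mean of each gene, the tested genes most like Irak2 were Gsap (0.105), Vasp (0.121) and Trim13 (0.164). Those most like Ripk2 were Lcp2 (0.111), Slc4a7 (0.142) and Slc16a10 (0.149), and those most like Map3k8 were Mipep (0.0571), Dnaja2 (0.0578) and Reps1 (0.0590). VASP promotes the growth of actin filaments, and LCP2 (SLP-76) is an adaptor of immune receptors.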

How the data were processed

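The 10 genes were the rows of the count tables with a member's symbol, and members and lists were chosen with earlier results of these data known. RNA was sequenced with a stranded mRNA kit. The authors deposited raw counts per gene, and the submitters' processing notes name STAR 2.7.0f, Subread 1.6.4, featureCounts, DESeq2 1.22.1 and GRCm38. Annotation and strand setting are not given in the sources used here. Deposited normalized counts, the same counts rescaled within an experiment, were not used.

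Counts of both experiments were joined by symbol. Of 53735 genes, 14418 passed edgeR's filterByExpr by genotype. Tests were edgeR 4.0.16 quasi-likelihood F tests in R 4.3.3 (TMM, robust), two-sided, with Benjamini-Hochberg adjustment, fitted to each experiment alone, to all 8 libraries with an additive experiment term, and to 4 groups for the interaction and for differences between experiments. Standard errors were derived from the fold change and the F statistic. Log2 CPM used a prior count of 2. Alternatives were DESeq2 1.42.0, limma-voom 3.58.1, other scalings, filters and models, and leaving out each library. Fits that left out a library used the model of 4 groups over the remaining libraries, except for the joined comparison. Libraries held 33977799 to 41584540 counts. Chi-square per gene within replicate pairs was 15.9 in WT and 12.0 in KO of experiment 1. In experiment 2 it was 67.4 in WT and 80.4 in KO, so replicates lay further apart there. No library was a duplicate of its partner. Named genes were all members, Mkl1, the gene with the smallest p of each pathway list in each experiment, and the 3 genes nearest in pattern to each member called in the joined fit. Others named were chosen after their values were seen. Figures were drawn with matplotlib 3.10.9.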

Additional observations from a re-analysis of the deposited data

Results flagged for a closer look

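The KO response differed between experiment 1 and experiment 2, in the interaction test of edgeR with Benjamini-Hochberg adjustment, for 5 of the 10 genes. As the log2 value in experiment 2 minus that in experiment 1, the difference was -0.93 for Myd88 (adjusted p = 0.0112), -0.61 for Irak1 (adjusted p = 0.00576), -1.47 for Traf6 (adjusted p = 0.000237), 2.25 for Ticam2 (adjusted p = 0.00556) and -0.60 for Tirap (adjusted p = 0.0219). With 1 library left out the calls of the other 4 genes held, whereas that of Tirap was lost without WT 1, WT 2, WT 3, KO 5 or KO 7 (adjusted p between 0.0515 and 0.0963). Of all genes tested, 20.6% and 21.0% had a negative or a positive difference past the threshold. The fibroblast markers, at 179 to 236 CPM in KO of experiment 1 and at most 12.9 CPM elsewhere, moved with the same contrast, as did 6 of the 10 macrophage markers, and the part of either list was not tested.

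Tirap in WT 3, at 30.2 CPM, lay far from the other WT libraries (23.7 to 24.4 CPM) by Dixon's criterion for 4 samples. Of 20 such groups, 10 genes in each genotype, this was the only 1 past the limit, and chance alone gives about 1 in 20. The criterion takes the 4 libraries as 1 group and ignores that they come from 2 experiments, whose WT libraries differed for 8 of the 10 genes.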

How the results depend on the processing

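No paired analysis was possible because the library numbers run from 1 to 8 and no number is shared between the genotypes. Irak2 and Ripk2 were below 0 under all 16 alternative fits of the joined comparison and called in 15 of them, all but the fit without the experiment term, which called 0 of the 10 members lower. The mean effect in the model with the interaction called 4 lower, Myd88 among them. Map3k8 was below 0 in 16 and called in 8. Within an experiment Irak2 and Ripk2 were called in 11 of 11 alternative fits, and Map3k8 in 8 of 11 in experiment 1 and 6 of 11 in experiment 2, where the fit reported above did not call it.

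At an adjusted p under 0.01 the members lower fell to 1 in experiment 2, those with a negative interaction to 2, those lower in WT of experiment 2 to 0, and in KO those lower to 1 and those higher to 2. Of the 14418 genes tested, 136 were lower in experiment 2 at that threshold and 1542 had a negative interaction. In experiment 2 against experiment 1, 992 were lower in WT, and 813 were lower and 1083 higher in KO. In experiment 2, DESeq2 and the 4-group model each called 1 member higher (Ticam2), and the members lower were 5 with DESeq2, 5 with no filter and 6 in the 4-group model. In limma-voom 1 was lower in WT of experiment 2.

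With 1 library left out (the lone library of a group then taken to vary like the others), the members lower and higher ranged from 2 to 3 and from 1 to 1 in experiment 1, from 4 to 6 and from 0 to 1 in experiment 2, and from 2 to 3 and from 0 to 0 joined. Negative and positive interactions ranged from 3 to 4 and from 1 to 2. No member called in experiment 2 against experiment 1, in WT or in KO, changed its sign with a library left out. In experiment 1 every fit with a library left out lost the calls of Irak1, Ticam1, Ticam2 and Tirap. For experiments 1 and 2 such fits used the model of 4 groups over the remaining libraries, so that model and library changed together.

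Signs turned only for values that were past the threshold in neither fit. Under upper-quartile scaling these were Myd88 (0.0600) and Irak4 (0.0680) in experiment 1, Irak4 in experiment 2 (0.0410), Irak4 (0.0542), Traf6 (0.00426) and Tirap (0.0384) joined, and the interaction of Irak4 (-0.0266). With at least 10 counts in every library Irak4 joined was 0.00283. With a library left out, the log2 values ranged from -0.0672 to 0.000430 for Myd88 and -0.102 to 0.0478 for Irak4 in experiment 1, from -0.103 to 0.107 for Irak4 and -0.0309 to 0.127 for Ticam1 in experiment 2, and joined from -0.0445 to 0.126 for Irak1, -0.0532 to 0.0267 for Irak4, -0.250 to 0.128 for Traf6, -0.629 to 0.176 for Ticam2 and -0.103 to 0.0929 for Tirap. The interaction ranged from -0.0972 to 0.244 for Irak2, -0.0830 to 0.136 for Irak4, -0.119 to 0.291 for Ripk2 and -0.194 to 0.0781 for Map3k8, and the difference between the experiments in WT from -0.156 to 0.00515 for Ticam1 and -0.00487 to 0.331 for Tirap. The causes were not tested.

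Over all genes, the joined comparison called 491 and 536 genes lower and higher, 1256 and 1236 with DESeq2, 2438 and 2373 as the mean effect in the model with the interaction and 1 and 3 without the experiment term. In experiment 2 the 4-group model called 2418 and 2481 against 1195 and 1084. At an adjusted p under 0.01 the counts were 3046 and 2704 in experiment 1, 136 and 98 in experiment 2 and 102 and 106 joined. With a library left out, the counts at an adjusted p under 0.05 ranged over 1462 to 1810 and 1289 to 1673 in experiment 1, 1638 to 2246 and 1805 to 2705 in experiment 2, 117 to 515 and 126 to 585 joined and 1879 to 3051 and 2034 to 3457 for the interaction.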
